A study of Homo sapiens with 20 samples.

Results

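The interferon-stimulated genes described here are 38 of the 60271 genes in the deposited count table. They were chosen by name as established targets of type I interferon, with earlier results of these data known. They were followed in MDA-MB-468 cells, an established triple negative breast cancer line with high levels of the EGF receptor. Cells were serum-starved, then left untreated as controls or given 50 ng/mL epidermal growth factor (EGF) for 12, 24, 48 or 72 h. All groups were seeded and harvested together, so the controls spent the whole experiment without EGF, and they share the starvation with the treated cells. Each of the 5 groups held 4 biological replicates, 20 libraries in all, of this 1 cell line, and a library held between 15611961 and 25856953 counts. The labels name no interferon treatment. Of the 38 genes, 36 passed the filter on low counts and were tested among 16522 genes, and IFI27 and EPSTI1 did not pass it.

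Type I interferons bind the receptor chains IFNAR1 and IFNAR2, whose kinases JAK1 and TYK2 phosphorylate STAT2. Phosphorylated STAT2 joins IRF9 in the complex ISGF3, which binds the interferon-stimulated response element (ISRE) in the promoters of antiviral genes. Interferon gamma acts through another promoter element, the gamma-activated site (GAS), and unphosphorylated STAT2 with IRF9 can keep some of these genes active without interferon. In tumour cells, this group of genes is known to be active at a low level without infection.

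Promoters from RefSeq (GRCh38.p14), from 250 bases before to 50 after the start of the gene, were at hand for 30 of the 38 genes. IRF7, DHX58, OAS2, OASL, IFIT2, MX2, USP18 and TRIM22 had no entry. The ISRE was searched as GAAANNGAAA or, on the other strand, TTTCNNTTTC, and 19 of the 30 promoters (63.3%) held it, against 3.57% of all 35116 promoters. The GAS was searched as TTCNNNGAA, which reads the same on the other strand, and 8 of the 30 (26.7%) held it, against 7.66% of all promoters. In BST2, EPSTI1 and IFI27 the matches to both motifs overlapped. The 250 bases before the start are shown for 3 genes that fell and 3 that rose after 12 h of EGF, with the ISRE in capitals, and for IRF1 with the GAS in capitals.
IFIT1, chr10:89392373-89392622, plus strand: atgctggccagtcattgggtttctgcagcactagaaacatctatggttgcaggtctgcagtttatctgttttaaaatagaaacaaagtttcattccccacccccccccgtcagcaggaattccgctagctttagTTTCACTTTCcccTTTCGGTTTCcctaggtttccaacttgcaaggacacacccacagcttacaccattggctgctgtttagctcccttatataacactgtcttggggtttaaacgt
IFI44L, chr1:78620198-78620447, plus strand: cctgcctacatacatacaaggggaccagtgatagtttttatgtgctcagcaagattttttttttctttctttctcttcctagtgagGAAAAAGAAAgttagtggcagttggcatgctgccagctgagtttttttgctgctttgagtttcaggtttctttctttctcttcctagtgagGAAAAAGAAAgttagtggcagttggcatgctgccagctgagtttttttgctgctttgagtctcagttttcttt
BST2, chr19:17405631-17405880, minus strand: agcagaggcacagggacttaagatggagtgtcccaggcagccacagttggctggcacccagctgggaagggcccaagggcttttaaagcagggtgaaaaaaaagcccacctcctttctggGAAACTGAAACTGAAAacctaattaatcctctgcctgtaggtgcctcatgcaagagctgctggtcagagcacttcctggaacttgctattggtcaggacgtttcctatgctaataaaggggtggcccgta
ISG20, chr15:88638766-88639015, plus strand: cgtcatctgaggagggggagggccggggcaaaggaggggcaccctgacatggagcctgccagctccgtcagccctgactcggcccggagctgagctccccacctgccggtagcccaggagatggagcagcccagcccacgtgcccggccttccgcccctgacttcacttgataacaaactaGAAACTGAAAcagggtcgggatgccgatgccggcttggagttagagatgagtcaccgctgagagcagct
SAMD9, chr7:93117980-93118229, minus strand: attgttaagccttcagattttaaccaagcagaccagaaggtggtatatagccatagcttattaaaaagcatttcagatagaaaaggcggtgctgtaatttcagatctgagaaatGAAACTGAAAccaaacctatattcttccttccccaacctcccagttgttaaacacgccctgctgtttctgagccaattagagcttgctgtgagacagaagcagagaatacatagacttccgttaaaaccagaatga
OAS3, chr12:112938224-112938473, plus strand: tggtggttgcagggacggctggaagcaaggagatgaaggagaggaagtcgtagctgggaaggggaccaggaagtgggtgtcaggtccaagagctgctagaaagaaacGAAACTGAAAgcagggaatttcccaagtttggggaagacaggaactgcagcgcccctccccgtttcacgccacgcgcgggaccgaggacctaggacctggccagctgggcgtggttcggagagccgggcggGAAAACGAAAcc
IRF1, chr5:132490774-132491023, minus strand: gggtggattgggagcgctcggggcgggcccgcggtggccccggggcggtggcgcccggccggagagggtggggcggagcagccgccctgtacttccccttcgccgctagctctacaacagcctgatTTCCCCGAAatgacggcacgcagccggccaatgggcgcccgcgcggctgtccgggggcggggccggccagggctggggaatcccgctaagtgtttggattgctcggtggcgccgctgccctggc

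The ISRE matches of IFIT1 began 116 and 103 bases before the start, and those of IFI44L 164 and 73 bases before it. In BST2 a pair of overlapping matches ran from 130 to 115 bases before the start. ISG20 had a single match from base -69, SAMD9 a single match from base -136, and OAS3 matches from bases -143 and -12. A match to these letters was thus present both in genes that fell and in genes that rose.

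The tested genes were called in both directions at 12 and 24 h of EGF, and most were called higher than the control at 72 h. At 12 h neither direction exceeded its share of all genes, given in the next paragraph. At 12 h, 12 of the 36 tested genes were lower than in the control and 10 were higher, and at 24 h 18 were lower and 7 higher. At 48 h 11 were higher and 5 lower, and at 72 h 24 were higher and 4 lower. The viral RNA binding protein IFIT1 fell furthest, to 0.638 CPM at 12 h and 0.471 at 24 h from 8.54 in the control, while the exonuclease ISG20 rose furthest, from 1.62 to 10.3 CPM at 12 h. CPM is the count of a gene as a rate of the library's total after TMM scaling, and a gene is called higher or lower where its p from edgeR's quasi-likelihood test, adjusted by Benjamini and Hochberg's method over all 16522 genes, was under 0.05. In bulk RNA, fewer cells that express a gene and less RNA per cell cannot be told apart.

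Many genes of any kind moved after EGF, so the counts are read against all genes tested. At 12 h, 32.9% of all genes were called higher and 36.5% lower, so that neither the 10 higher nor the 12 lower of 36 stood above the background. At 24 h, 29.2% were higher and 29.6% lower, against 7 and 18 of the 36. At 48 h the shares were 24.0% and 21.8%, against 11 and 5 of the 36. At 72 h they were 30.6% and 31.0%, against 24 and 4 of the 36. The median log2 fold change of the 36 genes was -0.14, -0.34, 0.19 and 0.54 in the order of the times. Over all genes tested, the medians were -0.05, -0.01, 0.01 and -0.01. All 4 EGF-treatments were compared with the same 4 control libraries. The count at 12 h depends on the scaling, since scaling by library size only moved the median of all genes at 12 h by -0.28 and gave 8 higher and 22 lower, and upper quartile scaling moved it by -0.16 and gave 9 higher and 19 lower.

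**Figure D1:**
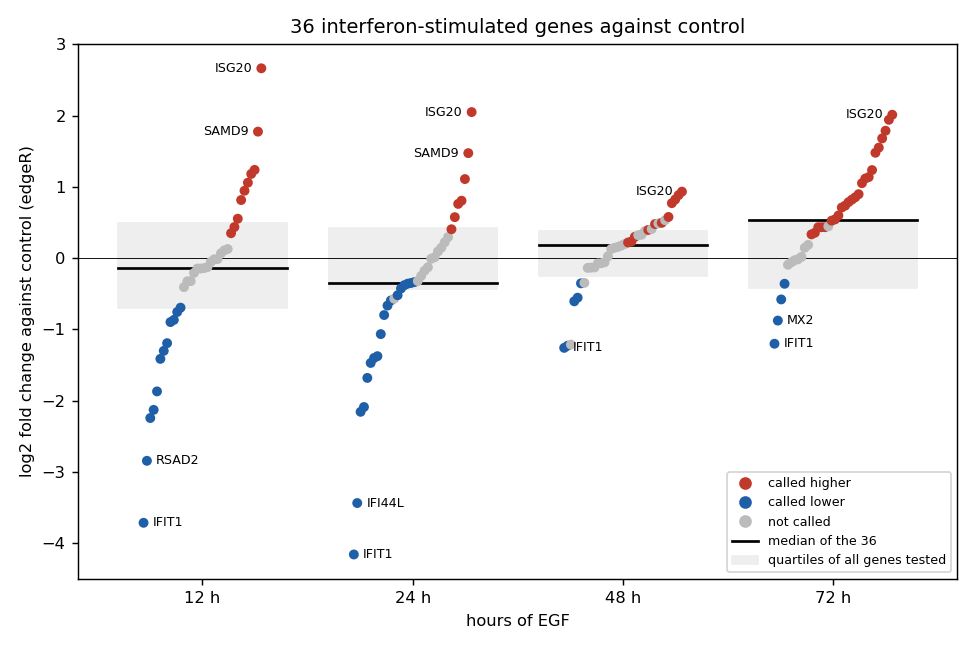
Log2 fold change of each of the 36 tested genes against control (vertical axis) by hours of EGF, 12 to 72 (horizontal axis). Points are genes, ordered by value within each time and coloured by call, the black line is their median and the grey band spans the quartiles of all genes tested. The median line lies at -0.14, -0.34, 0.19 and 0.54.

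Successive times were then compared with each other, in the same model of all 20 libraries. From 12 to 24 h, 8 of the 36 genes rose (27.9% of all genes did) and 15 fell (25.9%). From 24 to 48 h, 20 rose (25.9%) and 4 fell (24.3%). From 48 to 72 h, 22 rose (17.9%) and 1 fell (17.9%), and the gene that fell was MX2. The median log2 changes of the 36 were -0.24, 0.42 and 0.39, against 0.04, 0.02 and -0.01 for all genes. With scaling by library size only, the step from 12 to 24 h had 12 genes higher and 12 lower, and with upper quartile scaling 11 and 13. The lowest of the 5 group means was that at 24 h for 15 genes, at 12 h for 12, in the control for 7 and at 72 h for 2. The highest was that at 72 h for 22 genes, at 12 h for 7, in the control for 5 and at 48 h for 2.

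Over the 4 times, 6 genes were higher than the control at each, namely OAS1, OAS3, PARP12, PARP14, ISG20 and SAMD9, and 11.2% of all genes tested were. Only IFIT1 and TRIM22, of the 36, were lower at each, as were 10.4% of all genes. A further 6, STAT2, IFIT2, USP18, RSAD2, BST2 and IFI44, were lower at 12 and 24 h and higher at 72 h, a course of 0.902% of all genes. IFI44L and XAF1 were lower at 12 and 24 h and not called at 72 h (5.06% of all genes). IFIH1, OAS2, OASL, CMPK2 and IFI35 were called at 72 h alone, all higher (1.82% of all genes), and IRF7 was called at no time (10.2%). The heat map of all libraries shows these courses, with the 4 replicates of a group mostly alike.

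**Figure D2:**
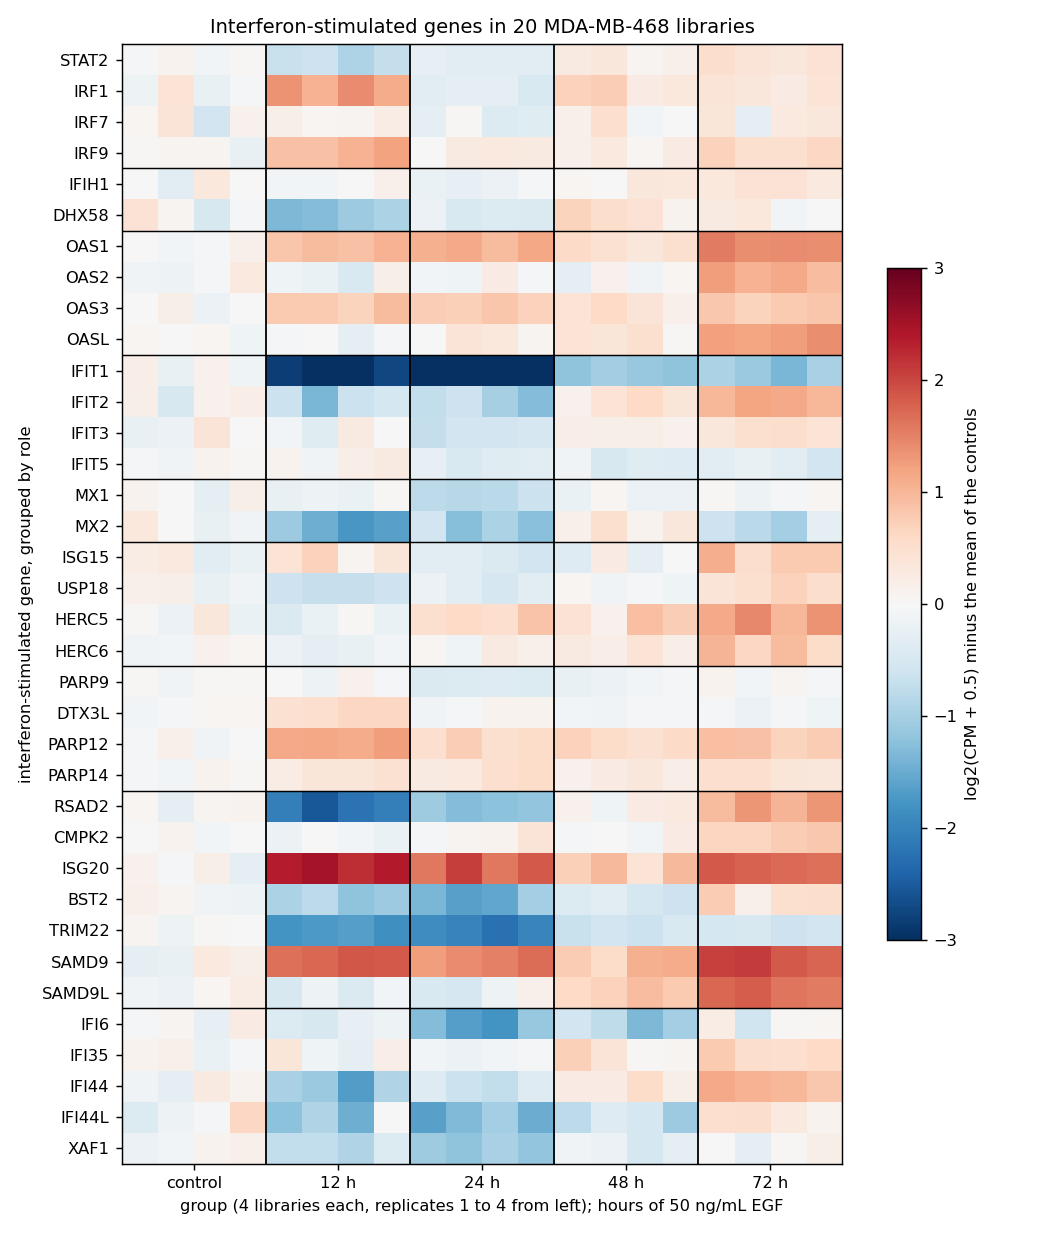
Level of each of the 36 tested genes (rows, grouped by role) in each of the 20 libraries (columns, 4 per group), as log2(CPM + 0.5) minus the mean of the 4 controls, from blue (lower) to red (higher). IFIT1, RSAD2 and TRIM22 are blue at 12 and 24 h in all 8 libraries, ISG20 and SAMD9 are red in all 16 EGF libraries, and most rows are red at 72 h.

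The transcription factors did not move together. STAT2 (chr12:56341597-56360155), the interferon-specific subunit of ISGF3, stood at 18.2, 20.1, 17.6 and 19.1 CPM in the control libraries, 11.6, 12.1, 9.56 and 11.2 at 12 h, 15.6, 14.6, 14.7 and 14.6 at 24 h, 22.7, 24.01, 19.9 and 20.9 by 48 h and 27.3, 24.7, 23.96 and 25.4 by 72 h. Its 12 h libraries all lay below and its 72 h libraries all above the controls. The log2 fold change was -0.75 (SE 0.08, adjusted p = 3.2e-08) at 12 h, -0.33 (SE 0.08, adjusted p = 0.0014) by 24 h and 0.44 (SE 0.08, adjusted p = 6.2e-05) at 72 h. At 48 h it was 0.22 (adjusted p = 0.029), a call that was lost without either of control replicates 1 and 3 or of EGF 48 h replicates 1 and 2 (adjusted p up to 0.10).

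IRF9 (chr14:24161053-24166565), the DNA-binding subunit of ISGF3, went the other way at 12 h. It stood at 6.13, 6.31, 6.36 and 5.05 CPM in the controls, 11.3, 11.3, 12.9 and 14.3 at 12 h, 6.03, 7.29, 7.37 and 7.22 at 24 h, 6.71, 7.34, 6.23 and 7.16 by 48 h and 9.87, 8.42, 8.49 and 9.32 by 72 h. All libraries at 12 and 72 h lay above all controls, with log2 fold changes of 1.06 (SE 0.11, adjusted p = 6.0e-09) and 0.60 (SE 0.11, adjusted p = 5.0e-05). At 24 and 48 h the values of 0.22 (adjusted p = 0.090) and 0.20 (adjusted p = 0.15) did not pass the test. In GENCODE 29, 48.4% of the exon bases of IRF9 lie in a second gene on the same strand, AL136295.5, so its count may be split with that gene.

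IRF1 (chr5:132481609-132490798), a factor induced by interferon gamma and by other signals that binds ISRE-like sites itself, peaked at 12 h. Its levels were 13.4, 20.2, 12.8 and 14.6 CPM in the controls, 38.7, 31.6, 41.04 and 33.2 at 12 h, 12.01, 12.1, 12.1 and 10.9 at 24 h, 24.6, 25.3, 17.9 and 18.7 by 48 h and 19.9, 19.2, 17.8 and 20.2 by 72 h. The 12 h libraries stood apart from all others, at a log2 fold change of 1.24 (SE 0.13, adjusted p = 8.3e-09). At 24 h, IRF1 was lower than in the control, at a log2 fold change of -0.38 (adjusted p = 0.019), and at 48 and 72 h it was higher, at 0.50 (adjusted p = 0.0030) and 0.33 (adjusted p = 0.030). Without control replicate 2, which has the highest control level, the fall at 24 h was not called (adjusted p = 0.14), nor was it without EGF 24 h replicate 4 (adjusted p = 0.059). The rise at 72 h was lost without any 1 of control replicates 1, 3 and 4 and EGF 72 h replicates 1 and 4 (adjusted p up to 0.10). Exons of genes on the opposite strand overlap 22.0% of its exon bases.

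IRF7 (chr11:612553-615999), the factor that amplifies the production of interferon alpha, stood at 4.37, 5.68, 2.65 and 4.66 CPM in the control libraries, 4.85, 4.41, 4.47 and 4.97 at 12 h, 3.41, 4.29, 3.01 and 3.17 at 24 h, 4.77, 6.16, 3.91 and 4.21 by 48 h and 5.59, 3.36, 5.25 and 5.49 by 72 h. The groups overlapped, and the log2 fold changes of 0.11, -0.32, 0.13 and 0.19 did not pass the test (adjusted p = 0.18 at the lowest).

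**Figure D3:**
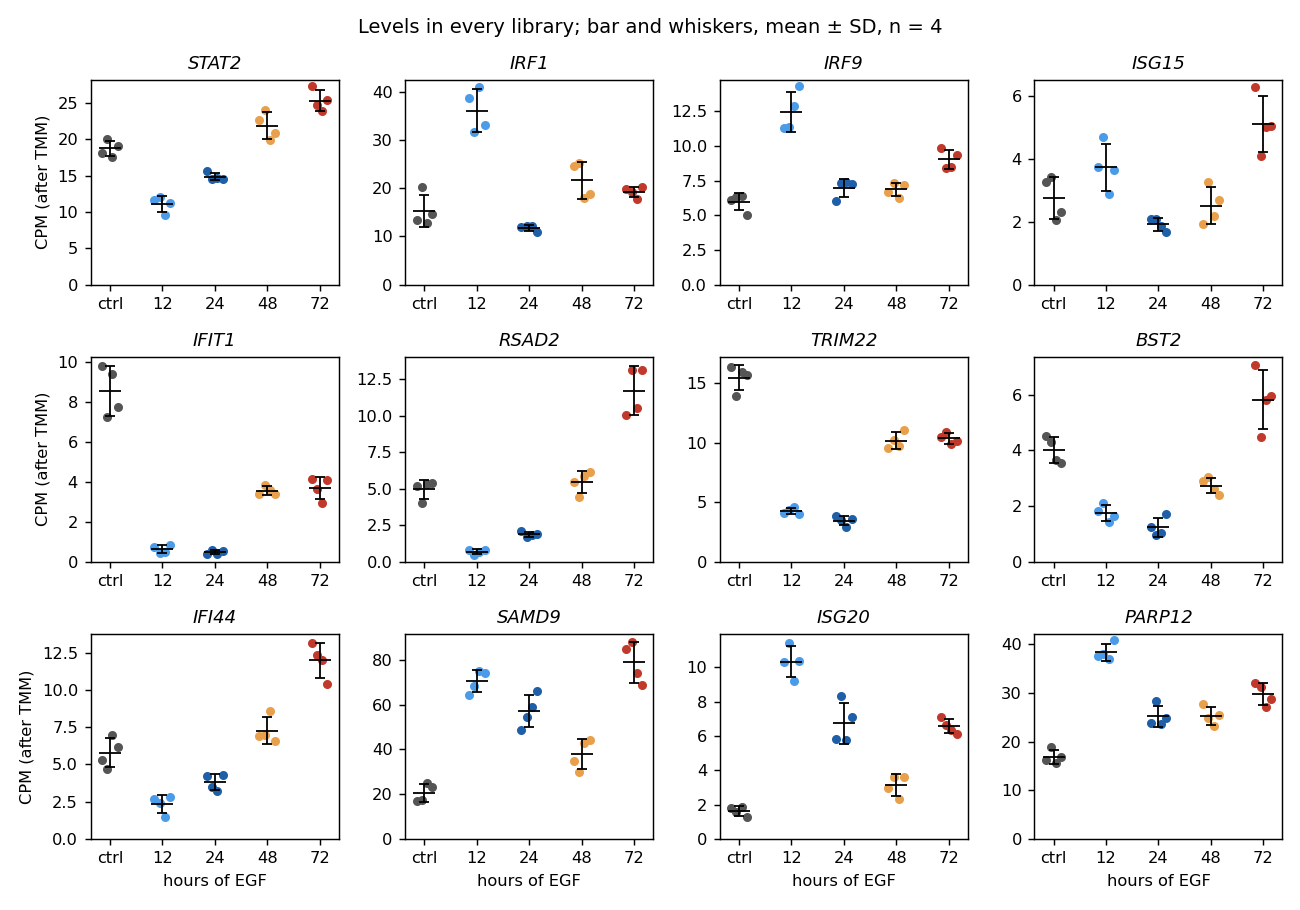
CPM after TMM scaling (vertical axis, from 0) of 12 of the genes in each library, by hours of EGF (horizontal axis, with the control at the left). Points are libraries, and the bar with whiskers is the mean ± SD of 4. IRF1 and IRF9 are highest at 12 h, STAT2, RSAD2, BST2 and IFI44 are low at 12 and 24 h and highest at 72 h, and SAMD9, ISG20 and PARP12 are above the controls throughout.

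Of the RNA sensors, IFIH1 (chr2:162267079-162318703), which encodes MDA5 and detects long double-stranded RNA, was called at 72 h alone. It stood at 31.4, 25.6, 39.7 and 31.9 CPM in the control libraries, 30.2, 29.9, 32.04 and 35.2 at 12 h, 27.8, 26.7, 28.1 and 31.2 at 24 h, 33.2, 32.1, 40.5 and 39.6 by 48 h and 39.8, 42.9, 43.1 and 39.1 by 72 h. At 72 h it was higher, with a log2 fold change of 0.36 (SE 0.10, adjusted p = 0.0044), and the earlier values of -0.01, -0.18 and 0.18 did not pass the test.

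DHX58 (chr17:42101404-42112733), which encodes LGP2, a modulator of the RNA sensors, was a low gene, with 4 to 50 counts per library. It stood at 1.91, 1.39, 0.768 and 1.25 CPM in the control libraries, 0.202, 0.218, 0.331 and 0.430 at 12 h, 1.09, 0.791, 0.833 and 0.830 at 24 h, 2.33, 2.05, 1.90 and 1.40 by 48 h and 1.66, 1.71, 1.17 and 1.28 by 72 h. Every library at 12 h lay below every control, at a log2 fold change of -2.13 (SE 0.31, adjusted p = 1.8e-06). Later values of -0.57, 0.53 and 0.15 did not pass the test. The third sensor of this kind, RIG-I, belongs to the sensors and adaptors counted further on and was higher than in the control at each time.

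The 2-5A synthetases make the second messenger that switches on RNase L, and OASL is a related protein without that activity. At 72 h all 4 were higher (30.6% of all genes were). At 12 and 24 h OAS1 and OAS3 were higher (32.9% and 29.2% of all genes were), while OAS2 and OASL were not called. OAS1 (chr12:112906777-112933222) stood at 14.2, 13.5, 13.8 and 16.004 CPM in the control libraries, 26.1, 28.1, 26.7 and 30.03 at 12 h, 30.8, 32.4, 28.3 and 32.6 at 24 h, 21.7, 19.9, 18.3 and 20.3 by 48 h and 43.6, 38.7, 39.4 and 38.5 by 72 h. All 16 EGF libraries lay above all 4 controls, with log2 fold changes of 0.95 (SE 0.08, adjusted p = 2.0e-10), 1.11 (SE 0.08, adjusted p = 1.9e-11), 0.48 (SE 0.08, adjusted p = 2.9e-05) and 1.48 (SE 0.08, adjusted p = 6.6e-14).

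OAS3 moved from a mean of 12.8 ± 1.36 CPM (SD, n = 4) in the control to 22.6 ± 1.83 at 12 h and 22.2 ± 1.18 at 72 h, with log2 fold changes between 0.40 and 0.82 over the 4 times. OAS2 had log2 fold changes of -0.14, -0.01 and -0.06, which did not pass the test, and then rose by 1.18 (adjusted p = 2.1e-07) from 48 to 72 h. OASL (chr12:121019111-121039242) stood at 0.904, 0.841, 0.896 and 0.721 CPM in the controls, 0.808, 0.817, 0.608 and 0.813 at 12 h, 0.840, 1.24, 1.15 and 0.927 at 24 h, 1.27, 1.22, 1.37 and 0.861 by 48 h and 2.62, 2.56, 2.68 and 3.002 by 72 h. Its 4 libraries at 72 h lay above all 16 others, at a log2 fold change of 1.68 (SE 0.19, adjusted p = 5.2e-08) against control.

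IFIT proteins bind viral RNA that lacks the host's cap marks. All 4 IFIT genes were lower than in the control at 24 h, where 29.6% of all genes were. They lie side by side on chromosome 10, yet the sizes of their changes and their later courses differed. IFIT1 (chr10:89392546-89406486) stood at 9.79, 7.23, 9.39 and 7.74 CPM in the control libraries, 0.758, 0.436, 0.497 and 0.861 at 12 h, 0.395, 0.565, 0.385 and 0.537 at 24 h, 3.38, 3.86, 3.61 and 3.40 by 48 h and 4.12, 3.64, 2.96 and 4.09 by 72 h. These are 161 to 220 counts per control library and 6 to 18 at 12 and 24 h. No EGF library reached the lowest control, and the log2 fold change was -3.71 (SE 0.19, adjusted p = 1.9e-14) at 12 h, -4.16 (SE 0.20, adjusted p = 1.0e-14) at 24 h, -1.26 (SE 0.15, adjusted p = 2.1e-07) by 48 h and -1.20 (SE 0.15, adjusted p = 2.1e-07) by 72 h. From 24 to 48 h it rose by 2.90 (adjusted p = 1.0e-10) and from 48 to 72 h it stayed within its spread, at 0.06 (adjusted p = 0.81).

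IFIT2 (chr10:89283694-89309276) stood at 4.92, 2.94, 4.74 and 5.05 CPM in the control libraries, 2.58, 1.36, 2.60 and 2.87 at 12 h, 2.37, 2.66, 1.92 and 1.46 at 24 h, 4.77, 5.92, 6.84 and 5.76 by 48 h and 9.13, 10.5, 10.1 and 9.07 by 72 h. Control replicate 2 was low, and the 72 h libraries lay above all controls. The log2 fold change was -0.90 (SE 0.20, adjusted p = 4.2e-04) at 12 h, -1.06 (SE 0.21, adjusted p = 1.2e-04) at 24 h, 0.41 at 48 h, which did not pass the test, and 1.14 (SE 0.18, adjusted p = 9.0e-06) at 72 h. A gene on the same strand, AL353751.1, overlaps 8.68% of its exon bases.

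IFIT3 (chr10:89327894-89340971) stood at 5.83, 6.05, 9.26 and 7.02 CPM in the control libraries, 6.52, 5.23, 8.45 and 7.03 at 12 h, 4.05, 4.52, 4.49 and 4.73 at 24 h, 7.98, 7.92, 7.94 and 7.66 by 48 h and 8.83, 9.78, 10.2 and 9.39 by 72 h. At 24 h all 4 libraries lay below the controls, at a log2 fold change of -0.66 (SE 0.14, adjusted p = 3.3e-04), and at 72 h it was higher, at 0.44 (SE 0.13, adjusted p = 0.0071). With a factor per gene, read from the authors' normalized values, the value at 72 h turned to -0.36 (adjusted p = 0.65) and that at 24 h became -1.48 (adjusted p = 0.062).

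IFIT5 (chr10:89414586-89421001), the member with the highest CPM of the 4, moved least. Its levels were 13.3, 12.7, 14.8 and 14.2 CPM in the control libraries, 14.9, 12.6, 15.9 and 16.6 at 12 h, 11.6, 9.77, 10.6 and 10.9 at 24 h, 12.6, 9.63, 10.6 and 10.3 by 48 h and 10.98, 11.7, 11.002 and 9.07 by 72 h. It was lower at 24, 48 and 72 h, with log2 fold changes of -0.36 (adjusted p = 0.0054), -0.35 (adjusted p = 0.0076) and -0.36 (adjusted p = 0.0048), and at 12 h the value was 0.13.

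The MX genes encode dynamin-like GTPases that trap viral particles. MX1 (chr21:41420304-41459214) stood at 20.2, 18.6, 15.7 and 21.6 CPM in the control libraries, 16.1, 17.1, 16.3 and 19.2 at 12 h, 10.7, 10.4, 10.6 and 11.96 at 24 h, 16.3, 19.8, 16.6 and 16.8 by 48 h and 19.2, 17.01, 18.5 and 19.7 by 72 h. Its 24 h libraries lay below all others, at a log2 fold change of -0.80 (SE 0.10, adjusted p = 2.7e-07) against control, and the values at the other times, -0.14, -0.13 and -0.03, did not pass the test. MX2 (chr21:41361943-41409390), with 5 to 64 counts per library, stood at 2.71, 2.10, 1.71 and 1.92 CPM in the control libraries, 0.707, 0.436, 0.276 and 0.335 at 12 h, 1.24, 0.565, 0.833 and 0.586 at 24 h, 2.38, 3.13, 2.28 and 2.76 by 48 h and 1.19, 0.967, 0.782 and 1.66 by 72 h. It was lower at 12, 24 and 72 h, with log2 fold changes of -2.24 (SE 0.30, adjusted p = 4.4e-07), -1.37 (SE 0.27, adjusted p = 1.4e-04) and -0.87 (SE 0.26, adjusted p = 0.0056), and at 48 h the value of 0.32 did not pass the test. From 48 to 72 h it fell again, with a log2 change of -1.20 (adjusted p = 7.8e-04).

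ISG15 is a ubiquitin-like protein that HERC5 attaches to other proteins and USP18 removes. All 4 genes of this class were higher at 72 h, as were 30.6% of all genes. ISG15 itself (chr1:1001138-1014540) stood at 3.26, 3.41, 2.05 and 2.31 CPM in the control libraries, 3.74, 4.69, 2.87 and 3.63 at 12 h, 2.08, 2.09, 1.86 and 1.66 at 24 h, 1.94, 3.28, 2.17 and 2.67 by 48 h and 6.28, 4.10, 5.03 and 5.05 by 72 h. It was higher at 12 h, lower at 24 h and higher at 72 h, with log2 fold changes of 0.44 (SE 0.19, adjusted p = 0.047), -0.52 (SE 0.21, adjusted p = 0.035) and 0.90 (SE 0.19, adjusted p = 2.4e-04). The call at 12 h was lost with scaling by library size only (adjusted p = 0.49), and without either of control replicates 3 and 4 or any of EGF 12 h replicates 1, 2 and 4 (adjusted p up to 0.18). That at 24 h was lost without either of control replicates 1 and 2 or of EGF 24 h replicates 3 and 4 (adjusted p up to 0.12).

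USP18 (chr22:18149899-18177397), which also blocks the receptor chain IFNAR2 and so dampens interferon signaling, stood at 15.4, 15.4, 11.6 and 12.7 CPM in the control libraries, 8.69, 8.23, 8.34 and 8.80 at 12 h, 12.1, 10.6, 9.55 and 10.98 at 24 h, 14.2, 12.7, 13.1 and 12.5 by 48 h and 17.96, 19.3, 22.3 and 19.9 by 72 h. It was lower at 12 and 24 h and higher at 72 h, with log2 fold changes of -0.69 (SE 0.10, adjusted p = 2.1e-06), -0.35 (SE 0.10, adjusted p = 0.0049) and 0.53 (SE 0.10, adjusted p = 5.6e-05). HERC5 (chr4:88457117-88506163) stood at 1.11, 0.883, 1.49 and 0.865 CPM in the control libraries, 0.657, 0.872, 1.10 and 0.861 at 12 h, 1.68, 1.86, 1.73 and 2.34 at 24 h, 1.61, 1.22, 2.43 and 2.13 by 48 h and 2.97, 3.75, 2.62 and 3.51 by 72 h. Its libraries from 24 h on were mostly above the controls, with log2 fold changes of 0.81 (SE 0.23, adjusted p = 0.0048), 0.77 (SE 0.23, adjusted p = 0.0082) and 1.55 (SE 0.22, adjusted p = 2.2e-06). HERC6, a relative of HERC5, was called higher at 48 h, at 0.30 (adjusted p = 0.050), and at 72 h, at 0.85 (adjusted p = 1.7e-06). The call of HERC6 at 48 h was lost without any 1 of the 8 libraries compared except control replicate 3, and with the DESeq2 Wald test (adjusted p = 0.061).

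PARP9 and DTX3L form a complex that modifies histones and helps interferon targets along, and PARP12 and PARP14 are ADP-ribosyltransferases that are themselves induced by interferon. DTX3L (chr3:122564238-122575203) had the highest level of the 38 per length, 17.7 CPM per kb of exon over all libraries. It stood at 90.9, 94.4, 101 and 100.3 CPM in the control libraries, 133, 137, 149.7 and 149 at 12 h, 89.4, 94.1, 104 and 103 at 24 h, 91.9, 89.4, 92.5 and 93.7 by 48 h and 94.3, 86.01, 93.7 and 88.96 by 72 h. All 12 h libraries lay above all controls, at a log2 fold change of 0.55 (SE 0.06, adjusted p = 4.1e-08), and the later values of 0.01, -0.07 and -0.09 did not pass the test. PARP9 was called at 24 h alone, lower, at -0.42 (adjusted p = 1.4e-05).

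PARP12 (chr7:140023744-140063721) stood at 16.2, 18.9, 15.6 and 16.9 CPM in the control libraries, 37.5, 38.1, 36.9 and 40.9 at 12 h, 23.9, 28.3, 23.6 and 24.9 at 24 h, 27.7, 24.9, 23.1 and 25.4 by 48 h and 32.03, 31.2, 27.2 and 28.9 by 72 h. No control library reached the lowest EGF library, and the log2 fold changes were 1.18 (SE 0.08, adjusted p = 6.9e-12), 0.58 (SE 0.08, adjusted p = 2.3e-06), 0.58 (SE 0.08, adjusted p = 3.7e-06) and 0.82 (SE 0.08, adjusted p = 6.8e-09). PARP14 was higher at all 4 times by less, with log2 fold changes from 0.23 to 0.43. Its call at 12 h was lost with scaling by library size only (adjusted p = 0.44), and that at 48 h without EGF 48 h replicate 3 (adjusted p = 0.054).

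Among the other antiviral effectors, RSAD2 (chr2:6865806-6898239) encodes viperin, which makes a nucleotide that ends viral RNA chains. It stood at 5.17, 3.99, 5.29 and 5.38 CPM in the control libraries, 0.808, 0.436, 0.663 and 0.813 at 12 h, 2.08, 1.70, 1.80 and 1.90 at 24 h, 5.43, 4.45, 5.89 and 6.12 by 48 h and 10.02, 13.1, 10.6 and 13.2 by 72 h. All 8 libraries at 12 and 24 h lay below and all 4 at 72 h above the controls. The log2 fold change was -2.84 (SE 0.19, adjusted p = 2.5e-12) at 12 h, -1.40 (SE 0.16, adjusted p = 6.9e-08) at 24 h, 0.15 at 48 h, which did not pass the test, and 1.24 (SE 0.14, adjusted p = 3.7e-08) at 72 h. Each step after 12 h was a rise, by 1.44 (adjusted p = 4.2e-06), 1.55 (adjusted p = 3.4e-08) and 1.09 (adjusted p = 1.1e-06) on the log2 scale.

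SAMD9 (chr7:93099513-93118023), a restriction factor of poxviruses that also restrains growth, had the highest CPM of this class. It stood at 16.8, 17.3, 25.01 and 23.02 CPM in the control libraries, 64.4, 68.3, 75.01 and 73.9 at 12 h, 48.7, 54.6, 59.05 and 66.1 at 24 h, 34.9, 29.7, 42.6 and 44.4 by 48 h and 85.02, 87.9, 74.1 and 68.7 by 72 h. No EGF library fell to the level of a control, and the log2 fold changes were 1.78 (SE 0.13, adjusted p = 6.0e-11), 1.47 (SE 0.13, adjusted p = 2.5e-09), 0.89 (SE 0.13, adjusted p = 1.1e-05) and 1.94 (SE 0.14, adjusted p = 1.8e-11). BST2 (chr19:17402939-17405648), which encodes tetherin and holds budding virus at the cell surface, stood at 4.52, 4.29, 3.67 and 3.56 CPM in the control libraries, 1.82, 2.12, 1.44 and 1.63 at 12 h, 1.24, 0.961, 1.03 and 1.71 at 24 h, 2.88, 3.03, 2.62 and 2.40 by 48 h and 7.05, 4.49, 5.81 and 5.94 by 72 h. Its libraries at 12, 24 and 48 h lay below all controls, and the log2 fold change went from -1.19 (SE 0.18, adjusted p = 2.2e-06) and -1.68 (SE 0.19, adjusted p = 4.2e-08) to -0.55 (SE 0.17, adjusted p = 0.0087) and, at 72 h, 0.54 (SE 0.16, adjusted p = 0.0048).

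ISG20, which degrades single-stranded RNA, had means of 1.62 ± 0.285 CPM (SD, n = 4) in the control, 10.3 ± 0.905 at 12 h, 6.75 ± 1.20 at 24 h, 3.12 ± 0.628 by 48 h and 6.56 ± 0.414 by 72 h. Its log2 fold changes were 2.66 (SE 0.16, adjusted p = 4.7e-13), 2.05 (SE 0.16, adjusted p = 1.3e-10), 0.93 (SE 0.17, adjusted p = 9.2e-05) and 2.01 (SE 0.16, adjusted p = 1.5e-10). TRIM22, a ubiquitin ligase that restricts several viruses, had means of 15.5 ± 1.06, 4.24 ± 0.270, 3.45 ± 0.408, 10.2 ± 0.688 and 10.4 ± 0.428 CPM over the same groups. It was lower at each time, with log2 fold changes of -1.87 (SE 0.10, adjusted p = 4.2e-14), -2.16 (SE 0.10, adjusted p = 7.4e-15), -0.60 (SE 0.09, adjusted p = 6.5e-06) and -0.58 (SE 0.09, adjusted p = 6.3e-06). A gene on the same strand, OR56B1, overlaps 10.7% of its exon bases. SAMD9L, the paralog of SAMD9, was called at 48 and 72 h, at 0.82 (adjusted p = 6.8e-05) and 1.79 (adjusted p = 1.5e-10). CMPK2, a mitochondrial nucleotide kinase, was called at 72 h alone, at 0.74 (adjusted p = 7.1e-07).

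In the class of other interferon-induced proteins, none of the 5 tested genes was called higher before 72 h. Of all genes, 32.9%, 29.2% and 24.0% were called higher at 12, 24 and 48 h, and with 5 genes nothing is read from the difference. IFI44 (chr1:78649796-78664078) stood at 5.32, 4.71, 6.96 and 6.15 CPM in the control libraries, 2.68, 2.40, 1.44 and 2.82 at 12 h, 4.25, 3.50, 3.21 and 4.30 at 24 h, 6.93, 6.94, 8.59 and 6.57 by 48 h and 13.2, 12.3, 12.01 and 10.4 by 72 h. Its 12 h libraries lay below and its 72 h libraries above all controls, with log2 fold changes of -1.30 (SE 0.17, adjusted p = 3.6e-07), -0.59 (SE 0.16, adjusted p = 0.0030) and 1.05 (SE 0.15, adjusted p = 1.6e-06). At 48 h the value of 0.33 did not pass the test.

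IFI44L (chr1:78619922-78646145), its paralog, was near the limit of the depth, with 0 to 44 counts per library. It stood at 0.653, 0.883, 0.982 and 1.87 CPM in the control libraries, 0.152, 0.327, 0.0552 and 1.05 at 12 h, 0, 0.113, 0.256 and 0.0488 at 24 h, 0.388, 0.685, 0.570 and 0.227 by 48 h and 1.70, 1.71, 1.40 and 1.15 by 72 h. The libraries at 24 h lay below all controls, at a log2 fold change of -3.44 (SE 0.68, adjusted p = 1.4e-04), which moved from -2.61 with a prior count of 2 to -4.25 without EGF 24 h replicate 3. At 12 h it was -1.41 (adjusted p = 0.020), which became -2.58 without EGF 12 h replicate 4 and was not called without control replicate 4 or any 1 of EGF 12 h replicates 1, 2 and 3 (adjusted p up to 0.10).

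IFI6, an inhibitor of cell death at the mitochondrion, was lower at 24 and 48 h, with log2 fold changes of -2.09 (SE 0.28, adjusted p = 1.1e-06) and -1.23 (SE 0.26, adjusted p = 4.0e-04), and had means of 2.35 CPM in the control, 0.535 at 24 h and 2.24 at 72 h. XAF1, a protein that promotes cell death, was lower at 12 and 24 h, at -0.87 (adjusted p = 1.6e-04) and -1.47 (adjusted p = 5.2e-07), though 38.3% of its exon bases lie opposite a gene on the other strand. IFI35 was called at 72 h alone, at 0.71 (adjusted p = 0.0019). Of the 2 untested genes, IFI27 had 0 to 7 counts per library up to 48 h and 6 to 36 at 72 h, means of 0.242 CPM in the control and 0.805 at 72 h, and EPSTI1 had 0 to 4 counts in every library.

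The ratio of any pair of genes within a library can be read without scaling, and here it was taken for genes that are neighbours. Of the 36 genes, 11 pairs lie next to each other among the 36 within 100 kb, and each pair's log2 ratio of counts at each time was set against the control by an exact two-sided permutation test of 4 against 4 libraries. This exact test cannot go below a permutation p of 0.0286, which adjusted over the 44 tests is 0.048. Each difference given as apart in this and the next paragraph has these values. The same ratios were not taken for pairs of other genes, many of which also moved after EGF. Coming apart is therefore not read as a trait of these pairs. The ratios rest on the same counts as the calls above and add no further support to them. CMPK2 and RSAD2, whose first exons overlap on opposite strands, came apart: the log2 ratio of CMPK2 to RSAD2 was 2.73 above the control at 12 h and 1.53 above it at 24 h. At 72 h it was -0.50, below the control, and at 48 h it was -0.12 (exact permutation p = 0.571). SAMD9 gained on SAMD9L by 2.12 at 12 h and 1.76 at 24 h, and the differences of 0.07 at 48 h and 0.17 at 72 h overlapped the controls (exact permutation p = 0.629 and 0.114).

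In the IFIT cluster, the log2 ratio of IFIT1 to IFIT5 differed from the control by -3.85, -3.75, -0.89 and -0.84 at the 4 times, apart at each. The ratio of IFIT3 to IFIT1 was likewise apart at each time, by 3.68, 3.48, 1.43 and 1.66. The log2 ratio of MX2 to MX1 differed from the control by -2.12 at 12 h and -0.87 at 72 h, and by 0.45 at 48 h. OAS3 gained on OAS2 by 0.98 at 12 h and 0.77 at 24 h, while the ratio of OAS1 to OAS3 was apart at 72 h alone, by 0.69. The ratio of PARP9 to DTX3L differed by -0.57 and -0.44 at 12 and 24 h. Paralogs such as these may share reads, and how reads were assigned to genes is not given in the sources used here.

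**Figure D4:**
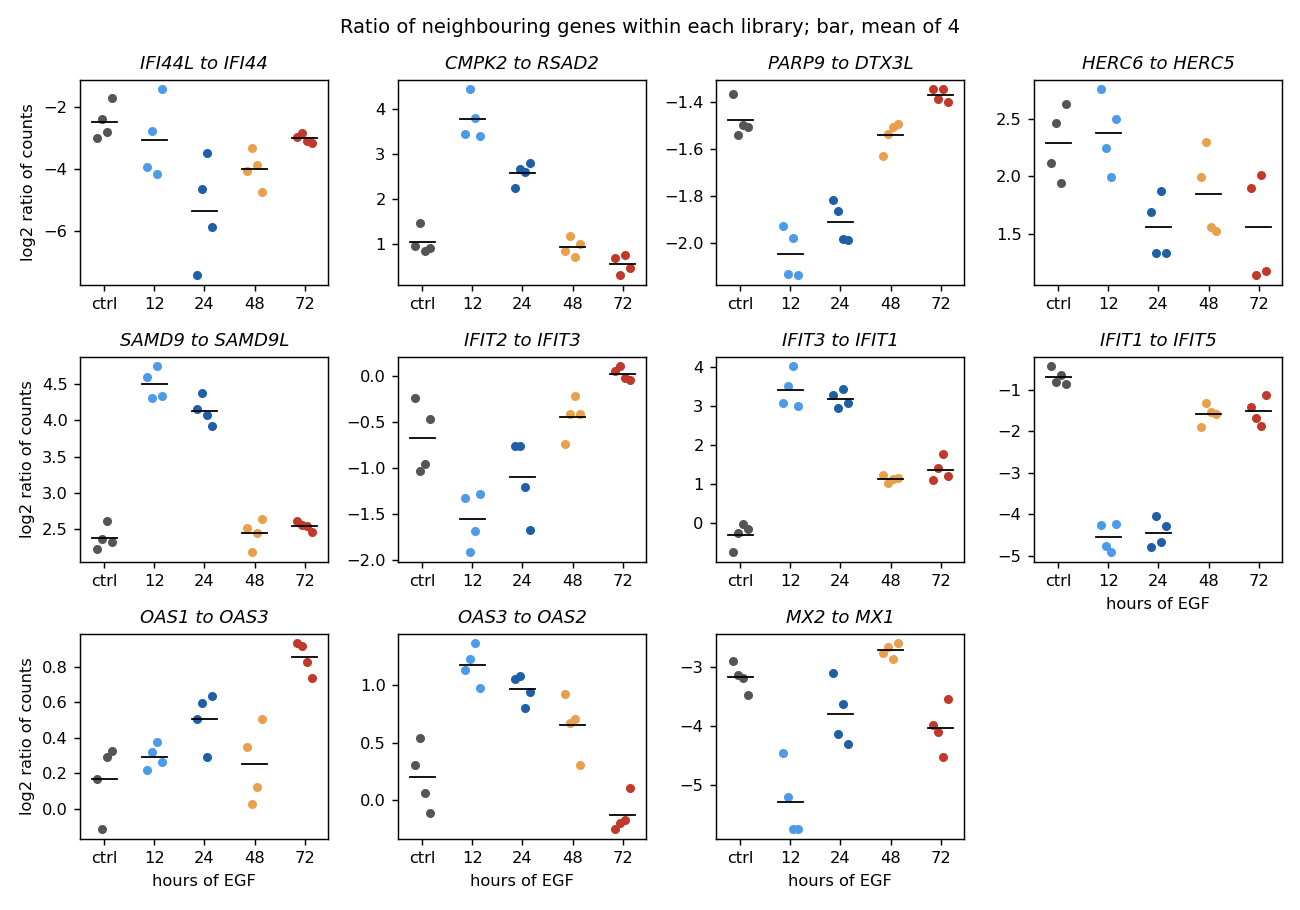
Log2 ratio of the counts (+ 0.5) of neighbouring genes within each library (vertical axis, scaled per panel) by hours of EGF (horizontal axis, with the control at the left). Points are libraries and bars the mean of 4. The ratios of CMPK2 to RSAD2, SAMD9 to SAMD9L and IFIT3 to IFIT1 lie above all controls at 12 and 24 h, and the first of these is below them at 72 h.

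At 12 and 24 h, genes with and genes without an ISRE match were called on both sides of the control. At 48 and 72 h no gene without a match was called lower. The GAS matches were not set against direction. Of the 19 genes with an ISRE match, 17 were tested, and 7 of them were higher and 4 lower at 12 h, 6 and 9 at 24 h, 6 and 4 at 48 h and 11 and 2 at 72 h. Of the 11 without a match, all tested, 3 were higher and 3 lower at 12 h, 1 and 5 at 24 h, 5 and 0 at 48 h and 9 and 0 at 72 h. The median log2 fold changes at 72 h were 0.45 with a match and 0.71 without. The 8 genes with no promoter entry were all tested, and 0 were higher and 5 lower at 12 h. At 24 h these were 0 and 4, at 48 h 0 and 1 and at 72 h 4 and 2. The shares of all genes called at these times, given above, apply to each group. These counts are a description without a test, and a missing match says only that these letters are not in the window.

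Levels were also compared between genes across the 20 libraries. Of 630 pairs of tested genes, 234 had a Pearson correlation of log2 CPM above 0.5 and 43 one below -0.5. These are 37.1% and 6.83% of the pairs, against 17.6% and 17.5% of the pairs of all genes tested. The pairs with the highest correlation were IFIT1 with TRIM22 (0.98), RSAD2 with IFI44 (0.96) and STAT2 with IFI44 (0.95), and the lowest was that of DHX58 with DTX3L (-0.87). The libraries fall into 5 groups by treatment, and the correlations include the differences between the group means.

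The rest of the pathway was followed with lists of genes that are not among the 38. Of 10 interferon genes, none passed the filter on low counts. IFNB1, the interferon beta gene, had no counts in the controls or at 12 and 48 h and at most 2 in a library at 24 or 72 h. IFNL1, an interferon lambda gene, had no counts in the controls or at 12 h, at most 1 in a library at 24 and 48 h and 1 to 6 in each library at 72 h. The highest mean among the 10 was that of IFNE at 12 h, 0.282 CPM (3 to 7 counts per library). A count of 0 allows up to 3 counts per library, so very low levels were not detectable at this depth.

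Of 9 genes for interferon receptors and JAK kinases, 4 were higher and 3 lower at 12 h, 5 and 3 at 24 h, 4 and 3 at 48 h and 5 and 3 at 72 h. Of all genes tested, 32.9% and 36.5% were higher and lower at 12 h, 29.2% and 29.6% at 24 h, 24.0% and 21.8% at 48 h and 30.6% and 31.0% at 72 h, and with 9 genes nothing is read from the difference. The gamma receptor chains moved apart, with IFNGR1 at a log2 fold change of -1.25 (adjusted p = 5.6e-12) and IFNGR2 at 1.22 (adjusted p = 6.7e-13) at 12 h. IFNLR1, the lambda receptor chain, was higher at 12 h, at 1.38 (adjusted p = 1.8e-10).

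Of 12 sensors and adaptors that lead to interferon production, 11 were tested. Of these, 7 were higher and 2 lower at 12 h, and 5 and 3 at 24 h. At 48 h the counts were 3 and 1, and at 72 h 6 and 3. Of all genes, 32.9% were higher and 36.5% lower at 12 h, and 29.2% and 29.6% at 24 h. At 48 h the shares were 24.0% and 21.8%, and at 72 h 30.6% and 31.0%. With 11 genes nothing is read from the differences. TLR3, the endosomal sensor of double-stranded RNA, fell at 12 h, with a log2 fold change of -2.19 (adjusted p = 8.0e-12) while its adaptor TICAM1 rose, at 2.12 (adjusted p = 2.9e-13). RIG-I, deposited under its older symbol DDX58, was at 0.93, 0.88, 0.58 and 1.34 at the 4 times, called higher at each. IFI16, a DNA sensor with 3 to 37 counts per library, had its highest value at 72 h, 2.68 (adjusted p = 1.8e-07).

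Of 7 inhibitors of interferon signaling, 5 were higher and 1 lower at 12 h, and 2 and 1 at 24 h. At 48 h the counts were 0 and 4, and at 72 h 0 and 2. The shares of all genes were 32.9% and 36.5%, 29.2% and 29.6%, 24.0% and 21.8% and 30.6% and 31.0% in that order. With 7 genes nothing is read from the differences. SOCS3, which blocks JAK kinases, rose from 3.11 ± 0.217 to 36.4 ± 5.74 CPM (SD, n = 4) at 12 h, a log2 fold change of 3.55 (adjusted p = 1.2e-16), and SOCS1, its relative, rose by 1.06 (adjusted p = 0.0045) at 12 h and was lower at 48 h, at -1.88 (adjusted p = 3.1e-04). The phosphatase gene PTPN6 was lower at 12 h, at -0.67 (adjusted p = 6.9e-05).

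Of 31 further interferon-induced genes, 15 were higher and 8 lower at 12 h, 11 and 12 at 24 h, 9 and 6 at 48 h and 16 and 8 at 72 h. The shares of all genes were 32.9% and 36.5% at 12 h, 29.2% and 29.6% at 24 h, 24.0% and 21.8% at 48 h and 30.6% and 31.0% at 72 h. The counts at 24 and 48 h lay near these shares. At 12 and 72 h the higher counts lay above them and the lower counts did not exceed them, which was not tested. The 31 genes had median log2 fold changes of 0.25, -0.22, 0.10 and 0.21 in the order of the times. Those of the 36 genes were -0.14, -0.34, 0.19 and 0.54. Among the 31, the genes with the highest fold changes were low in the control. IDO1, which breaks down tryptophan, had 0.0766 CPM in the control, 2.08 at 12 h, 1.91 at 24 h, 0.205 by 48 h and 4.54 by 72 h, and was called higher at 12, 24 and 72 h. CXCL9, a chemokine for T cells, went from 1 to 3 counts per control library to 31 to 69 at 72 h. CXCL11, another ligand of the same receptor, was higher than in the control at each time, at 3.03 (adjusted p = 5.8e-08) at 72 h.

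The label of the cells was checked against markers. The 5 epithelial markers EPCAM, KRT8, KRT18, KRT19 and CDH1 were all tested. They summed to 1408 to 1774 CPM in the control libraries, 6865 to 7332 at 12 h and 3453 to 4275 at 24 h. By 48 h the sum was 1555 to 1696 CPM and by 72 h 2186 to 2589. PGR had no counts in the control, and ESR1 and ERBB2 were at 5.03 and 21.5 CPM. Of 5 leukocyte markers, PTPRC, CD3E and MS4A1 were at or near 0 and did not pass the filter, and CD14 and CSF1R made up the sum of 6.18 to 7.88 CPM in the control, 2.83 to 3.65 at 12 h, 4.44 to 7.07 at 24 h, 14.8 to 18.9 by 48 h and 11.7 to 14.6 by 72 h. The 5 stromal and endothelial markers summed to 7.06 to 10.05 CPM in the control and 16.3 to 17.998 at 72 h, from COL1A1 and PECAM1, with DCN, LUM and VWF at or near 0. The mitochondrial share of counts averaged 10.9% in the control, 9.41% at 12 h and 15.04% at 72 h. The part of these in the changes of the 38 genes was not tested, beyond the count without mitochondrial genes, which stayed at 24 higher and 4 lower at 72 h.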

How the data were processed

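RNA from 20 MDA-MB-468 libraries was prepared with the Lexogen Corall mRNA protocol and sequenced as 75 bp single-end reads. The authors deposited a whole-number count per gene and library, and normalized values made in DESeq2, a score on the scale of counts whose factor differs between genes. The submitters' processing notes name hg38 and DESeq2. Aligner, counting, annotation release, use of strand and handling of molecular identifiers are not given in the sources used here. The deposited tables hold the same counts. Their remaining columns, the authors' own fold changes and p-values per comparison, were not used.

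The deposited counts were analyzed with edgeR 4.0.16 in R 4.3.3. Genes were kept by filterByExpr (16522 of 60271) and libraries scaled by TMM. A robust quasi-likelihood model with a mean for each of 5 groups was fitted to all 20 libraries, 7 contrasts were tested, and p-values were adjusted by the Benjamini-Hochberg method over every tested gene (threshold 0.05). Log2 fold changes used a prior count of 0.125, and a count of 0 was taken to allow 3 counts. Intervals from counts cover counting error only. Exon lengths, positions and overlaps came from GENCODE 29 (GRCh38), promoters from RefSeq (GRCh38.p14). Neighbouring genes were compared by the log2 ratio of counts + 0.5. The procedure was also run on simulated counts of control and 12 h libraries, with 200 genes changed, equally up and down. In the data many more genes moved, so this run cannot tell which scaling is right.

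The 38 genes, their 9 role classes and the other lists were chosen with earlier results of these data known, and the comparison of neighbouring genes was added after the data were seen. All 38 genes are named. Values in every library are given, in each class, for the called gene with the largest log2 fold change against control and the gene with the highest mean CPM, for STAT2, IRF1, IRF7, IRF9 and ISG15, and for genes called higher at 1 time and lower at another. Of each other list, counts and the 3 called genes with the largest changes are given, with SOCS1, SOCS3, IFNB1 and IFNL1. Of these lists, 2 genes are not reported here and were left out of the counts. ISG20, TRIM22 and RIG-I were given with more values than this rule asks, after their values were seen. The alternatives tried were other scalings (library size, upper quartiles, DESeq2's size factors), the Wald test of DESeq2 1.42.0, other filters (any count, or 10 or more per library), a model of the 8 compared libraries, the replicate number as a block, counts without mitochondrial genes, a factor per gene taken from the authors' normalized values (genes with 20 or more counts per library), a larger prior count (2), and dropping single libraries. The replicates are labelled as biological. The variance between replicates was 3.53 to 57.5 times the sampling noise over 30 pairs, so no 2 libraries were alike within that noise.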

Additional observations from a re-analysis of the deposited data

Results flagged for a closer look

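Of the 36 tested genes, 9 were called above the control at 1 time and below it at another, a course shared by 13.0% of all genes tested. Each difference between such times passed edgeR's quasi-likelihood test, but the genes were chosen by these calls against the same controls, which largely fixes that outcome, so the differences are given as values only. RSAD2 was at 72 h 4.08 above 12 h and 2.64 above 24 h on the log2 scale. IFI44 was at 72 h 2.35 above 12 h and 1.65 above 24 h on the log2 scale. BST2 was at 72 h 1.74 above 12 h and 2.22 above 24 h and 1.10 above 48 h on the log2 scale. IFIT2 was at 72 h 2.03 above 12 h and 2.20 above 24 h on the log2 scale. IFIT3 was at 72 h 1.10 above 24 h on the log2 scale. USP18 was at 72 h 1.22 above 12 h and 0.87 above 24 h on the log2 scale. ISG15 was at 12 h 0.96 above 24 h, and at 72 h 1.42 above 24 h on the log2 scale. STAT2 was at 48 h 0.98 above 12 h and 0.56 above 24 h, and at 72 h 1.19 above 12 h and 0.77 above 24 h on the log2 scale. IRF1 was at 12 h 1.62 above 24 h, and at 48 h 0.87 above 24 h, and at 72 h 0.71 above 24 h on the log2 scale.

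In 10 of 180 sets of 4 libraries of a gene and group, 1 library stood far from the other 3 by Dixon's test, where chance gives about 1 in 20. STAT2 had 15.6 CPM in EGF 24 h replicate 1, against 14.6 to 14.7 in the other 3. IRF1 had 10.9 CPM in EGF 24 h replicate 4, against 12.01 to 12.1 in the other 3. IRF7 had 3.36 CPM in EGF 72 h replicate 2, against 5.25 to 5.59 in the other 3. IRF9 had 6.03 CPM in EGF 24 h replicate 1, against 7.22 to 7.37 in the other 3. DHX58 had 1.09 CPM in EGF 24 h replicate 1, against 0.791 to 0.833 in the other 3. OASL had 0.608 CPM in EGF 12 h replicate 3, against 0.808 to 0.817 in the other 3. IFIT2 had 2.94 CPM in control replicate 2, against 4.74 to 5.05 in the other 3. MX1 had 19.8 CPM in EGF 48 h replicate 2, against 16.3 to 16.8 in the other 3. PARP9 had 32.4 CPM in control replicate 2, against 35.3 to 35.8 in the other 3. RSAD2 had 3.99 CPM in control replicate 2, against 5.17 to 5.38 in the other 3. Control replicate 2 was the lowest control for IFIT2, PARP9 and RSAD2, and the highest for, among others, STAT2, IRF1, IRF7, ISG15 and PARP12.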

How the results depend on the processing

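The counts of genes called kept within 1.5 times of those reported in all alternatives but 4. With scaling by library size only, 22 genes were lower at 12 h instead of 12, and with upper quartile scaling 19, where the median of all genes itself moved by -0.28 and -0.16. With at least 10 counts in every library, which left 30 of the 38 genes, 3 were lower at 48 h and 2 at 72 h, and 0 fell from 48 to 72 h. With factors per gene, which left 26 of the 38 genes, 6 were lower at 12 h, 8 lower at 24 h, 7 higher and 1 lower at 48 h, 3 rose and 9 fell from 12 to 24 h, 8 rose from 24 to 48 h, and 11 rose and 0 fell from 48 to 72 h. Both leave out low genes by construction. Under these factors IFIT3 at 72 h turned to -0.36 and PARP9 at 72 h to -0.31 (adjusted p = 0.033) from 0.02, and the cause was not tested. Leaving out each library in turn gave 9 to 10 higher and 11 to 13 lower at 12 h, 7 to 8 and 17 to 20 at 24 h, 9 to 13 and 5 to 6 at 48 h, and 23 to 25 and always 4 at 72 h. For the successive steps it gave 7 to 9 and 12 to 15, 17 to 21 and 4 to 5, and 19 to 23 and always 1. Of the 91 calls of a single gene against control, 75 held in every alternative where the gene was tested. In at least 1 alternative 15 were lost, and 1, IFIT3 at 72 h, turned. IFIT1 and RSAD2, among other low genes, were not tested with at least 10 counts in every library or with factors per gene. Of 53 values not called, 24 passed with the same sign in at least 1 and 21 changed sign without passing in at least 1. PARP9 at 72 h, also not called, passed with the opposite sign, as given above. The replicate numbers do not pair the libraries (mean correlation of same-numbered libraries 0.005 to 0.091, 6 of 20 best with their own number), and a replicate block gave 10 higher and 12 lower at 12 h and 24 and 4 at 72 h, as reported. The 26 differences in the ratios of neighbouring genes that were apart from the control had no overlap between the libraries compared. Leaving out 1 library therefore could not change their sign. With 4 libraries per group it could not move them by 1 SD either, so it was no check of them. Of the 18 others, 3 changed sign without 1 library. These were CMPK2 to RSAD2 at 48 h, HERC6 to HERC5 at 12 h and OAS1 to OAS3 at 48 h. Genes under about 1 CPM, such as IFI44L, have few counts at this depth and large errors.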
